A study of Mus musculus with 4 samples.

Results

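Ependymal cells, the ciliated cells that line the brain ventricles, were picked from single-cell transcriptomes of mouse hemispheres taken after an ischemic stroke. A cell was counted as ependymal when the summed unique molecular identifiers (UMIs, each counting 1 captured transcript molecule) of Tmem212, Ccdc153, Foxj1, Dnah12 and Rsph1 reached 3, with at least 2 of these genes detected. It also had to carry at most 1 UMI of the choroid plexus genes Kl, Folr1, Kcnj13 and Clic6, none of the leukocyte gene Ptprc, and at most 2 UMIs of P2ry12, Tmem119, P2ry13, Gpr34, Olfml3 and Fcrls, which mark microglia. This gave 398 of the 55902 cells kept from 56726 barcodes, where a kept cell had 500 or more UMIs, 300 or more genes and no more than 20% of its UMIs from mitochondrial genes.

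All animals were wild-type mice with an ischemic stroke whose infarct cavity was filled on day 5 with hydrogel microspheres, called MAPS in the labels, and the hemisphere of the stroke side was dissociated on day 14. The microspheres carried no vesicles (MAPS), or they carried extracellular vesicles (EVs) of astrocytes, which the series calls reactive without saying so of each group. A first vesicle group is labelled UT EV+MAPS (here UT EV), a second one IL-1a TNFa C1q EV+MAPS (here IL-1a/TNFa/C1q EV) and the last one IL-4 C1q EV+MAPS (here IL-4/C1q EV). The labels do not spell out UT, and strain, age, sex and the number of animals behind each library are not given in the sources used here. Each group is 1 library, so differences between groups could not be checked against replicates, and no test was possible. The treatment cannot be told apart from the animals, dissociation and sequencing run of that library. Where values of all the libraries follow each other with no names, they stand in library order: MAPS, then UT EV, then IL-1a/TNFa/C1q EV, then IL-4/C1q EV. Where only the vesicle libraries are meant, the same order holds from UT EV on. All intervals are exact 95% intervals that cover counting error only.

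Ependymal cells form a single-layered epithelium, and each carries a tuft of motile cilia whose beating moves cerebrospinal fluid. The cilium is built around a ring of microtubule doublets with a central pair, driven by dynein arms and paced by radial spokes, and the transcription factors Foxj1, Rfx2, Rfx3 and Myb switch its genes on. The layer faces the cerebrospinal fluid on one side and the subventricular zone on the other.

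In library order the ependymal cells numbered 45, 86, 125 and 142, and no barcode was shared between libraries. Their UMIs summed to 303158, 323433, 599306 and 589914, and the median cell had 6960, 3868.5, 4336 and 3845 UMIs. Levels below are these summed UMIs scaled to counts per 1000000 (CPM), which allow a gene to be compared between libraries but not with another gene. Counting error was therefore largest in MAPS and UT EV, where 1 UMI stood for 3.30 and 3.09 CPM. MAPS cells also had more mitochondrial RNA, with a median of 2.08% of UMIs against 0.619% to 0.823% in the EV libraries.

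Genes that the selection did not use were also those of ependymal cells. Rarres2, which encodes the secreted chemoattractant chemerin, was detected in 38 of 45, 75 of 86, 116 of 125 and 129 of 142 cells in library order. After each cell was thinned to 1500 UMIs, it was seen in 85.0% to 93.1% of ependymal cells, in 0.505% to 1.72% of microglia and in 9.96% to 21.7% of astrocytes of the same libraries. Rarres2 stood at 3411, 5132, 6349 and 5045 CPM, lowest in MAPS. The genes with the highest ratio to the other kept cells included Pvalb, which encodes the calcium buffer parvalbumin, at 100.3-fold. Meig1 (76.7-fold), Sntn (79.2-fold), which encodes a protein of the cilium tip, and the axonemal dynein gene Dnah10 (73.5-fold) followed. These ratios come from the cells the rule picked and are a description. Of 14 tanycyte genes, which mark the related cells of the third ventricle floor, 3 had at least 20 UMIs.

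The 5 genes of the rule did not all differ between libraries in the same direction. Tmem212, which encodes a membrane protein, stood at 2187, 4789, 5336 and 4952 CPM. Foxj1, the master factor of motile cilia, stood at 699, 275, 229 and 302 CPM, and Dnah12, an inner-arm dynein, at 521, 213, 150 and 222 CPM. MAPS was thus the lowest library for Tmem212 and the highest for Foxj1 and Dnah12.

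Cells close to the lower limit held fewer ependymal transcripts than the rest. The 20 cells with exactly 3 marker UMIs had 4779 CPM summed over 24 other ependymal markers, while 31 cells just outside, with 2 marker UMIs, had 2755 CPM. The 285 cells with at least 15 marker UMIs had 25677 CPM of the other ependymal markers. The 113 cells with 3 to 14 marker UMIs were shallow, with a median of 1310 UMIs. They were 11 of 45, 35 of 86, 22 of 125 and 45 of 142 members in library order, so their share was largest in UT EV.

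Some members also carried transcripts of other cell types. At least 10 UMIs of the marker list of another type were found in 5 of 45, 11 of 86, 28 of 125 and 25 of 142 ependymal cells. Scrublet, a doublet caller, marked 1, 3, 10 and 12 of the members. Microglia markers were the most frequent, in 4, 4, 14 and 12 cells. The summed level of the 9 microglia markers that the selection did not use was 815, 869, 1775 and 1310 CPM, against 41191 to 58472 CPM in microglia. Of 13 leukocyte genes that the selection did not use, 7 to 11 had UMIs, summing to 85.8, 322, 1045 and 348 CPM in library order. Of 8 such choroid plexus genes, which include the ependymal marker Calml4, 5 or 6 had UMIs, summing to 1419 to 1630 CPM. The B cell gene Cd79a and the choroid plexus genes Kcne2 and Slc4a5 of these lists were at 0 in every library. Haemoglobin and Alas2, erythrocyte genes, summed to 12439 CPM in IL-1a/TNFa/C1q EV and to 0 to 331 CPM elsewhere, with 98.3% of the Hbb-bs UMIs of IL-1a/TNFa/C1q EV in 3 cells. Values without these barcodes are given beside the results they move most.

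Ependymal cells made up a small share of each library, lowest in MAPS. They were 0.325% of kept cells in MAPS (interval 0.237% to 0.435%) and 0.674% in UT EV (0.539% to 0.831%). The share was 0.835% (0.695% to 0.994%) for IL-1a/TNFa/C1q EV, while IL-4/C1q EV had 0.991% (0.836% to 1.17%). The ratio of UT EV to MAPS was 2.07 (1.43 to 3.04) and that of IL-4/C1q EV to UT EV 1.47 (1.12 to 1.95). The interval of IL-4/C1q EV over IL-1a/TNFa/C1q EV (1.19, 0.927 to 1.52) included equality, as did that of IL-1a/TNFa/C1q EV over UT EV (1.24, 0.934 to 1.65). A share of dissociated cells depends on how many cells of every type were recovered. The shallowest ependymal cell had 1262 UMIs in IL-1a/TNFa/C1q EV against 508 to 527 in the other libraries, so the shares were also taken at matched depth. With 1300 UMIs required of every kept cell they were 0.315%, 0.551%, 0.846% and 0.966%, and IL-1a/TNFa/C1q EV over UT EV became 1.54 (1.12 to 2.13), which no longer included equality. With every cell thinned to 1500 UMIs, where more cells also pass the choroid plexus limit, the shares were 0.639%, 0.910%, 1.41% and 1.43%. That ratio was then 1.56 (1.21 to 2.01), while UT EV over MAPS went from 2.07 to 1.42 (1.05 to 1.94). Without the barcodes that carried other types' markers the shares of the last 2 libraries were 0.648% and 0.817%, with 1.10 (0.807 to 1.51) for IL-1a/TNFa/C1q EV over UT EV. The ratio to UT EV for IL-1a/TNFa/C1q EV thus lay on either side of a detectable difference with the handling of the cells.

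**Figure D1:**
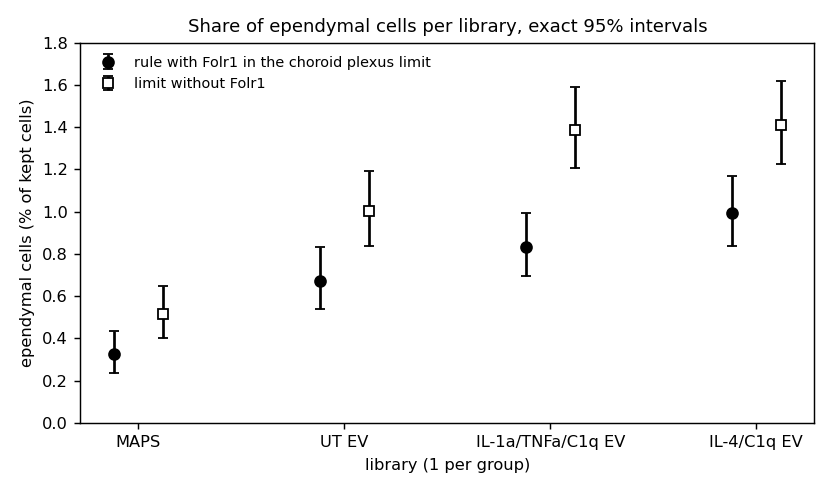
Share of kept cells that met the ependymal rule in each library, in percent, with exact 95% counting intervals, under the rule and with Folr1 left out of the choroid plexus limit. MAPS is lowest under both, at 0.325% and 0.513%.

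The choroid plexus limit removed many cells that looked ependymal. Among cells with at least 15 marker UMIs, 30, 41, 84 and 60 were lost to that limit alone. Folr1, a folate receptor gene that served as a choroid plexus marker, supplied 80.6% to 97.7% of their choroid plexus UMIs. Their median of Ttr, transthyretin, the dominant choroid plexus transcript, was 1 or 2 UMIs against 468 to 796.5 in choroid plexus cells, but 4 of 84 in IL-1a/TNFa/C1q EV and 2 of 60 for IL-4/C1q EV had more Ttr UMIs than any member of that library, and Ttr summed to 2060 and 2648 CPM there against 190 and 261 CPM in members. The cells lost to the limit held 25355 CPM of the other ependymal markers. With Folr1 left out of the limit, a choice made after these values were seen, the shares became 0.513%, 1.003%, 1.39% and 1.41%. On that count IL-1a/TNFa/C1q EV over UT EV was 1.39 (1.11 to 1.74), so its interval no longer included equality, and IL-4/C1q EV over IL-1a/TNFa/C1q EV was 1.02 (0.833 to 1.24).

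Interferon-response genes were higher in the ependymal cells of IL-1a/TNFa/C1q EV, and some of them in those of IL-4/C1q EV, than in those of UT EV. Type I interferons act through the receptor Ifnar1 and Ifnar2 and the kinase Jak1 and start genes whose promoters carry the interferon-stimulated response element, read as GAAA, any 2 bases, GAAA on either strand. The promoter stretches of Isg15, Ifit3, Ifit3b and Bst2 are shown because the results below turn on these genes. The bases are those of RefSeq on build GRCm38.p6, 5′ to 3′ on the strand of the gene, with every match in capitals. They lie at chr4:156200850-156200921 on the minus strand for Isg15 and chr19:34583348-34583441 on the plus strand for Ifit3. The Ifit3b stretch is chr19:34607744-34607837 on the plus strand, and the Bst2 stretch chr8:71537562-71537627 on the minus strand. All lie upstream of the first base of the gene.
Isg15: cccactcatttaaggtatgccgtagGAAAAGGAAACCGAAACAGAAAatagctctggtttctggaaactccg
Ifit3: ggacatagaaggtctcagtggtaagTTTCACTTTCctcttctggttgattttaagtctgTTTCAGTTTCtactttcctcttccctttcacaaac
Ifit3b: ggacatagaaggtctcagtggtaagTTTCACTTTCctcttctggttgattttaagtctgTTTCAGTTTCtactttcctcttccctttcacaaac
Bst2: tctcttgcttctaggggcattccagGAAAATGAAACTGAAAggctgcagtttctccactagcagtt

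Isg15 held 3 overlapping matches and each of the others 2. The motif occurred in 19 of the 36 interferon-response genes that could be matched to a promoter window of 300 bases (250 before to 50 after the start), or 52.8%. Over all 27025 genes with a window the share was 3.99%, and over all 32851 windows 3.44%. Ifit3 and Ifit3b are near-identical neighbouring copies, and the printed stretches are the same base for base, so reads may be split between them and their counts are uncertain. A match is a description of letters and not of factor binding.

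Isg15, which encodes a ubiquitin-like protein, stood at 19.8, 152, 594 and 324 CPM in library order. IL-1a/TNFa/C1q EV was thus highest, and no 2 libraries overlapped in their counting intervals. The ratio of IL-1a/TNFa/C1q EV to UT EV was 3.92 (2.90 to 5.40), that of IL-4/C1q EV to UT EV 2.14 (1.55 to 2.99), and that of IL-4/C1q EV to IL-1a/TNFa/C1q EV 0.545 (0.455 to 0.652). Without the barcodes that carried other types' markers the last ratio was 0.309. Isg15 in microglia stood at 40.6, 146, 89.6 and 469 CPM, so the ependymal cells were far above microglia in IL-1a/TNFa/C1q EV and below them in IL-4/C1q EV.

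Ifit3, an antiviral repeat protein gene, was highest in IL-1a/TNFa/C1q EV. Its levels were 85.8, 145, 425 and 141 CPM. IL-1a/TNFa/C1q EV exceeded UT EV 2.93-fold (2.14 to 4.09), and IL-4/C1q EV was 0.331 of IL-1a/TNFa/C1q EV (0.255 to 0.425). IL-4/C1q EV and UT EV did not differ beyond counting error (0.968, 0.669 to 1.42). Its copy Ifit3b had the same order, with 49.5, 89.7, 143 and 55.9 CPM, but 24 of its 29 UMIs in UT EV came from 1 cell.

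Bst2, which encodes tetherin, an antiviral membrane protein, was high in both libraries with cytokine-named vesicles. It stood at 79.2, 121, 392 and 492 CPM. Over UT EV the ratios were 3.25 (2.31 to 4.69) and 4.08 (2.91 to 5.85). IL-4/C1q EV was 1.25-fold above IL-1a/TNFa/C1q EV (1.05 to 1.495), but 0.923 of it without the barcodes that carried other types' markers. Microglia of the same libraries had 211, 558, 516 and 1660 CPM of Bst2, more than the ependymal cells in each, and their part in the ependymal level was not tested. Ifi27, an interferon-induced gene of the mitochondrial and nuclear membrane, behaved likewise, with 468, 563, 1096 and 1156 CPM and ratios of 1.95 (1.65 to 2.31) and 2.05 (1.74 to 2.43). Ifitm3, which encodes a membrane protein that blocks viral entry, stood at 653, 1268, 2146 and 1746 CPM, highest in IL-1a/TNFa/C1q EV.

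**Figure D2:**
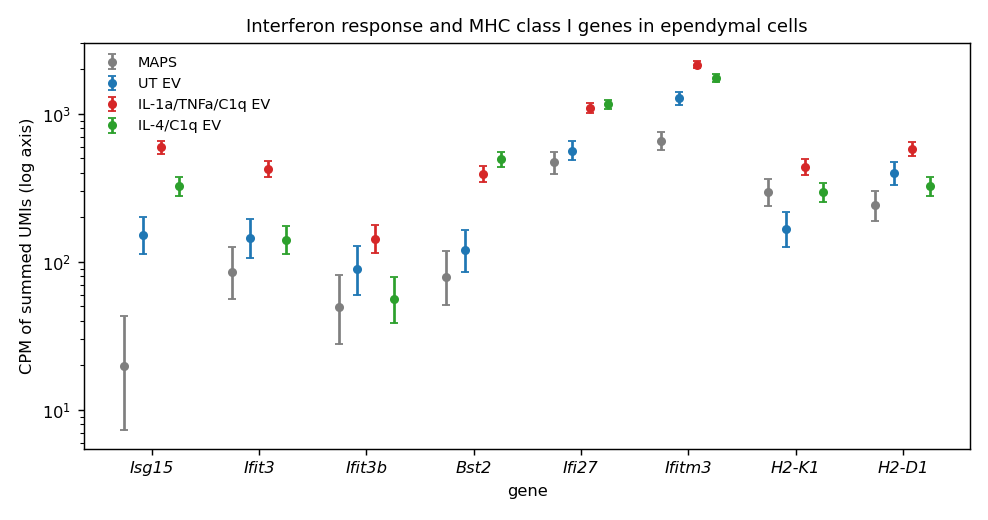
Levels of 8 interferon-response and MHC class I genes in the ependymal cells of each library, in CPM of summed UMIs on a log axis, with exact 95% Poisson intervals. Isg15 and Ifit3 are highest in IL-1a/TNFa/C1q EV (594 and 425 CPM), whereas Bst2 is high in both IL-4/C1q EV (492 CPM) and IL-1a/TNFa/C1q EV (392 CPM).

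Of the 48 interferon-response genes listed, 35 had at least 20 UMIs over the 4 libraries. In IL-1a/TNFa/C1q EV over UT EV, 27 were higher and 8 lower, with a median log2 ratio of 0.68 beside -0.08 over all genes measured. For IL-4/C1q EV over UT EV, 24 were higher and 11 lower (median 0.33 beside -0.02). For IL-4/C1q EV over IL-1a/TNFa/C1q EV, 13 were higher and 22 lower (median -0.20 beside 0.07). Without the barcodes that carried other types' markers the medians over 30 genes were 0.85, 0.13 and -0.51. With no choroid plexus or microglia UMI allowed, the median for IL-4/C1q EV over UT EV was instead 0.99, and as a mean over cells 0.61, so its size depended on the handling of the cells while its sign held in these settings. IL-4/C1q EV over IL-1a/TNFa/C1q EV was -0.04 with no such UMI allowed. Microglia markers outside the selection moved with this list, with 9 of 9 higher in IL-1a/TNFa/C1q EV over UT EV (median 1.07) and 8 of 9 in IL-4/C1q EV over UT EV (0.68). Without the marker-carrying barcodes their medians over 7 genes were -0.20 and -0.43. A count of members past 2-fold was made where a gene had at least 100 UMIs, which 11 of the list did, and these 11 passed through whichever library held them at high level. Of these, 3 were at least 2-fold higher in IL-1a/TNFa/C1q EV over UT EV, where 2.04% of all such genes were higher and 2.24% lower. Likewise 3 were higher in IL-4/C1q EV over UT EV, where 1.47% of all genes were higher and 0.402% lower. In IL-4/C1q EV over IL-1a/TNFa/C1q EV, 2 were lower and none higher, where the shares over all genes were 0.938% lower and 1.21% higher.

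Less abundant members gave a mixed picture. Usp18, which removes Isg15 from proteins, had 3, 1, 20 and 10 UMIs in library order. Oasl2, an oligoadenylate synthetase-like gene, stood at 52.8, 18.6, 53.4 and 30.5 CPM, so that MAPS was as high as IL-1a/TNFa/C1q EV. Rsad2, encoding viperin, went the other way, with 26.4, 49.5, 23.4 and 20.3 CPM and 16 UMIs in UT EV. Receptor and kinase genes were low throughout. Ifnar2 had 16.5, 49.5, 55.1 and 57.6 CPM and Jak1 72.6, 49.5, 50.1 and 54.2. The 9 measured genes of that list had medians of -0.02 for IL-1a/TNFa/C1q EV over UT EV and 0.13 for IL-4/C1q EV over UT EV.

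UMIs of the interferon list were spread over many ependymal cells, but a large part of them came from Ifitm3 and Ifi27. Before thinning the list summed to 648, 1002, 3546 and 2901 UMIs in library order. Ifitm3 had 198, 410, 1286 and 1030 of these UMIs, and Ifi27 had 142, 182, 657 and 682. After thinning Ifitm3 was seen in 57.5%, 69.0%, 79.8% and 78.9% of cells, and Isg15 in 2.5%, 8.62%, 30.7% and 22.8%. With each cell thinned to 1500 UMIs, the median cell had 3, 3, 6 and 5 UMIs of the list in library order. Cells with at least 5 such UMIs were 10 of 40 in MAPS (25%) and 21 of 58 in UT EV (36.2%, 23.99% to 49.9%). IL-1a/TNFa/C1q EV had 74 of 114 (64.9%, 55.4% to 73.6%), against 70 of 114 for IL-4/C1q EV (61.4%, 51.8% to 70.4%). Shallower cells, 5, 28, 11 and 28 of them, were left out. In UT EV 1 cell held 212 of the 1002 list UMIs, while the leading cell of IL-1a/TNFa/C1q EV held 141 of 3546.

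**Figure D3:**
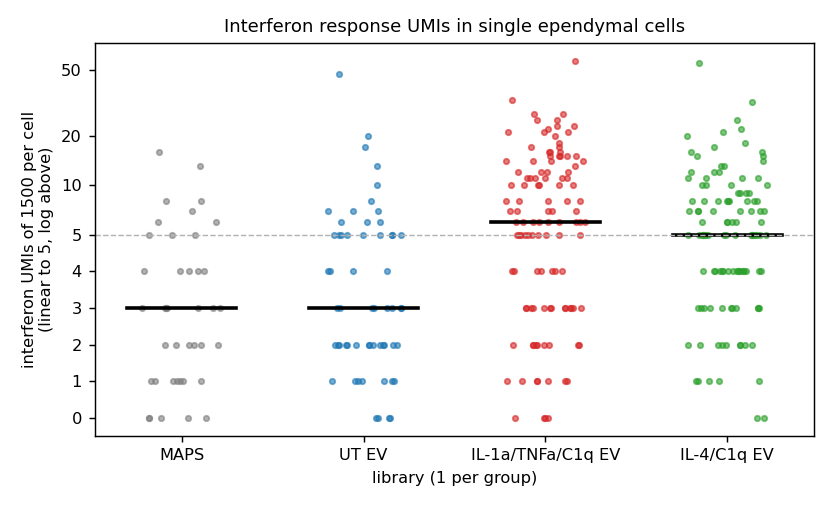
UMIs of the 48 interferon-response genes in each ependymal cell after thinning to 1500 UMIs, by library, with bars at the medians of 3, 3, 6 and 5 UMIs and a dashed line at 5. The upper quartiles are 4.25, 5, 12.75 and 9 UMIs, and the highest cells 16, 47, 57 and 55.

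The order of the libraries was another one in other cells of the same samples. At the same thinned depth, microglia with at least 5 list UMIs made up 26.6%, 19.9% and 87.3% in the vesicle libraries, highest in IL-4/C1q EV. Among astrocytes the shares were 7.67%, 7.74% and 22.04%. Ifit3 was seen in 15.5%, 31.6% and 15.8% of thinned ependymal cells of the vesicle libraries, and in 2.73%, 2.20% and 17.8% of microglia. In IL-1a/TNFa/C1q EV the ependymal share was therefore far above that of microglia, and in IL-4/C1q EV it was at about the microglial level. The part of free RNA in these shares was not tested.

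As medians over the list, IL-1a/TNFa/C1q EV over UT EV was 0.68 in ependymal cells, 0.35 in choroid plexus cells, -0.04 in astrocytes and -0.60 in microglia. IL-4/C1q EV over UT EV was 0.33, 0.87, 1.40 and 1.40 in the same order. The median of IL-4/C1q EV over IL-1a/TNFa/C1q EV was -0.20 in ependymal cells and 0.77, 1.24 and 1.998 in the other kinds. The difference between the cell kinds was not tested, since each group is 1 library, and both ratios of a cell kind share libraries. Members measured were 35, 21 to 24, 42 and 48, so the medians do not rest on the same genes.

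**Figure D4:**
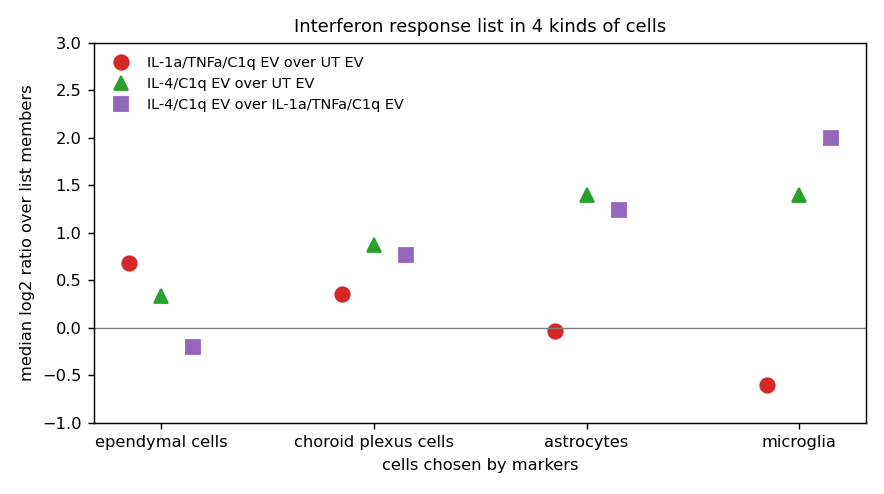
Median log2 ratio over the interferon-response genes in ependymal cells, choroid plexus cells, astrocytes and microglia for 3 comparisons of libraries, with 0 meaning no difference. For IL-4/C1q EV over IL-1a/TNFa/C1q EV the ependymal median is -0.20 and that of microglia 1.998.

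MHC class I genes, which display peptides to cytotoxic T cells, were also highest in IL-1a/TNFa/C1q EV among the vesicle libraries. H2-K1 stood at 297, 167, 437 and 295 CPM, with a ratio of 2.62 (1.95 to 3.58) for IL-1a/TNFa/C1q EV over UT EV. H2-D1 stood at 241, 396, 576 and 324 CPM and B2m, the shared light chain, at 211, 105, 170 and 124. MAPS was thus above UT EV for H2-K1 and B2m and below it for H2-D1. Over the list, 13 of 16 measured genes were higher and 3 lower in IL-1a/TNFa/C1q EV over UT EV (median 0.75), and 2 of the 6 with at least 100 UMIs were at least 2-fold higher, where 2.04% of all genes were. The median was 0.31 for IL-4/C1q EV over UT EV, while IL-4/C1q EV over IL-1a/TNFa/C1q EV gave -0.43, the last becoming -0.17 without the barcodes that carried other types' markers. H2-K1, H2-D1 and their relatives are similar in sequence, so their counts are uncertain where reads could be shared.

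MHC class II transcripts came mostly from a few cells. Cd74, the invariant chain, had 5, 5, 543 and 184 UMIs in library order. Of the last 2 counts, 269 and 122 lay in 1 cell each, and with Folr1 left out of the choroid plexus limit the log2 ratio of IL-4/C1q EV over UT EV turned from 4.33 to -0.15. For the list, 3 cells held 77.6% of the UMIs in IL-1a/TNFa/C1q EV, and 3 others 80.7% of those in IL-4/C1q EV. The list medians of 4.20 and 3.19 over UT EV became 0.87 and 0.44 over the 4 genes still measured once the barcodes with other types' markers were left out. Other inflammatory genes had the same pattern. Saa3, an acute-phase gene, had 85 of its 109 UMIs of IL-1a/TNFa/C1q EV in 1 cell, and the chemokine Cxcl10 46 of its 47 UMIs of UT EV in 1 cell. The 30 measured genes of the acute-phase, complement and reactive glia list had a median of 0.08 for IL-1a/TNFa/C1q EV over UT EV and -0.07 for IL-4/C1q EV over UT EV. Against IL-1a/TNFa/C1q EV, the median for IL-4/C1q EV was -0.12. Of the list's 19 genes with at least 100 UMIs, 1 was past 2-fold up in IL-1a/TNFa/C1q EV over UT EV, Saa3, and 1 down, complement C4b. Over all such genes 2.04% were higher and 2.24% lower. C4b had 111 CPM in UT EV and 48.4 in IL-1a/TNFa/C1q EV. Without the marker-carrying barcodes the C4b ratio was 1.09.

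Few motile cilium genes passed 2-fold between the vesicle libraries. The cilium transcription programme had a median of 0.37 in IL-4/C1q EV over UT EV, with 11 of 16 genes higher, beside -0.02 over all genes. Without the barcodes that carried other types' markers this median was 0.20 over 13 genes, with 7 higher and 6 lower. Microtubule inner proteins had 0.22 in IL-1a/TNFa/C1q EV over UT EV beside -0.08. Dynein arm genes, the motors, had medians of 0.10 for IL-4/C1q EV over UT EV, -0.10 for IL-1a/TNFa/C1q EV over UT EV (0.08 under TMM, the scaling described below) and, for IL-4/C1q EV over IL-1a/TNFa/C1q EV, 0.13, with none of 19 past 2-fold in any of them. Since at most 2.24% of all genes passed in either direction of these comparisons, a count of 0 among 19 is near the background. Dnah5, an outer-arm heavy chain, stood at 117, 113 and 125 CPM in the vesicle libraries. Dnah9, its distal counterpart, stood at 152, 100 and 117 CPM. Dynein assembly, radial spoke, central pair, nexin link and microtubule inner protein genes likewise had no member past 2-fold in these 3 comparisons. Spef2, a central pair gene, had 390, 349 and 402 CPM, and Tekt1, a tektin filament gene, 278, 337 and 349. Ccdc39, the ruler that sets the dynein repeat, had 263, 245 and 288.

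Exceptions were few. Myb, which acts upstream of Foxj1 in making multiciliated cells, had 37.1, 36.7 and 84.8 CPM in the vesicle libraries, from 12, 22 and 50 UMIs. IL-4/C1q EV was 2.28-fold above UT EV (1.20 to 4.71) and 2.31-fold above IL-1a/TNFa/C1q EV (1.37 to 4.004), but MAPS had more, at 195 CPM. Myb was the 1 gene of 5 in the cilium transcription programme with at least 100 UMIs to pass 2-fold there. Over all such genes 1.47% were at least 2-fold higher in IL-4/C1q EV over UT EV and 1.21% in IL-4/C1q EV over IL-1a/TNFa/C1q EV. Ift46, a subunit of the intraflagellar transport train, was 2.12-fold higher in IL-1a/TNFa/C1q EV over UT EV (1.19 to 4.03), with 46.4 and 98.4 CPM. Dync2i1, of the retrograde transport motor, was lower there at 0.485 (0.359 to 0.653), with 303 and 147 CPM. Without the barcodes that carried other types' markers, 0 of 20 intraflagellar transport genes with at least 100 UMIs were at least 2-fold lower in that comparison. Ttll3, which adds glycine to cilium tubulin, was lower at 0.458 (0.326 to 0.642), with 442, 244, 112 and 186 CPM over all the libraries.

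**Figure D5:**
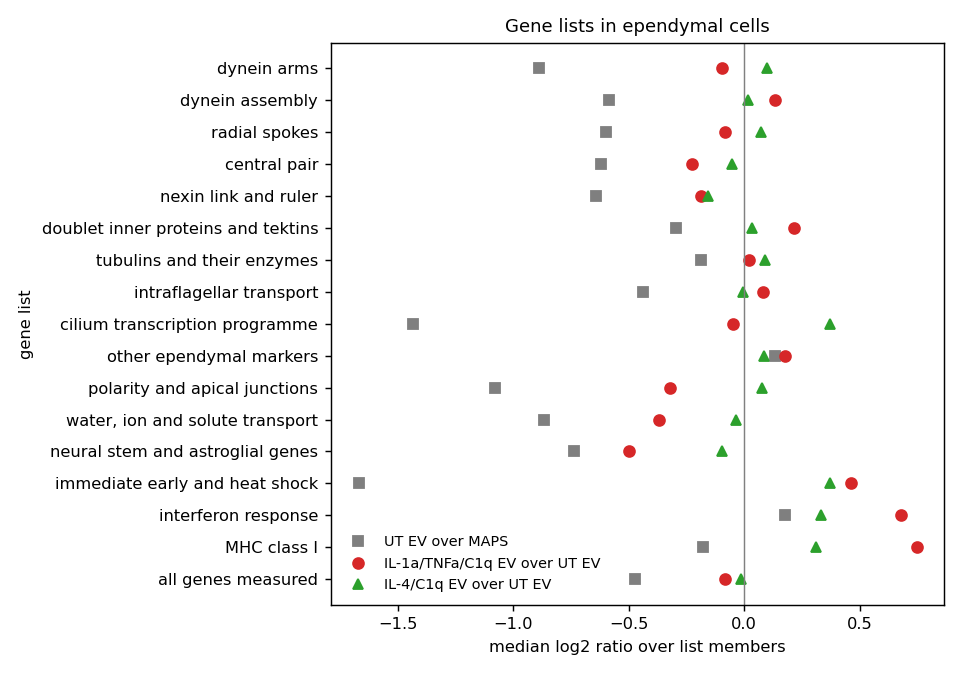
Median log2 ratio of gene lists in ependymal cells, with all genes measured as the last of 17 rows and 0 meaning no difference. The 3 comparisons are UT EV over MAPS, IL-1a/TNFa/C1q EV over UT EV and IL-4/C1q EV over UT EV. The central pair list lies at -0.23 in IL-1a/TNFa/C1q EV over UT EV, the microtubule inner protein list at 0.22, and the interferon list reaches 0.68 in IL-1a/TNFa/C1q EV over UT EV.

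The IL-1a/TNFa/C1q EV library was lower than the others for genes of the glial and stem cell side of ependymal identity. Of 20 measured genes of the neural stem and astroglial list, 14 were lower and 6 higher than in UT EV (median -0.50), and 17 of 20 were higher in IL-4/C1q EV than in IL-1a/TNFa/C1q EV. Without the barcodes that carried other types' markers the first median was -0.64. Markers of other glia were lower in the same comparison, with 7 of 9 astrocyte markers (median -0.70) and 10 of 10 oligodendrocyte markers (-1.16), and their part in the list's difference was not tested. Sox2, a stem cell factor, stood at 416, 288, 170 and 212 CPM. Sox2ot, the noncoding transcript that overlaps Sox2, stood at 82.5, 83.5, 13.3 and 62.7 CPM, and IL-4/C1q EV, the nearest library, was 4.70-fold above IL-1a/TNFa/C1q EV (2.15 to 11.7). Reads of the overlapping Sox2 and Sox2ot cannot be told apart where strand was not used in counting. Fabp7, a glial fatty acid carrier, was at 142 CPM in UT EV and 60.1 in IL-1a/TNFa/C1q EV (0.422, 0.265 to 0.668), but its ratio was 0.651 without the barcodes that carried other types' markers. Gja1, the gap junction gene of astroglia, had 186, 108 and 188 CPM in the vesicle libraries.

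Water, ion and solute transport genes, which serve exchange between fluid and tissue, were lower in 20 of 23 measured cases in IL-1a/TNFa/C1q EV over UT EV (median -0.37). Over all genes measured, 4914 of 8797 were lower (median -0.08). None of the list's 14 genes with at least 100 UMIs passed 2-fold. This is near the background, since 2.04% of all such genes were higher and 2.24% lower. Aqp4, the main water channel of the ventricle wall, had 623, 439, 355 and 429 CPM over all the libraries. Car2, a carbonic anhydrase, had 264, 158, 85.1 and 124 CPM. Polarity and apical junction genes, which align the cilia and seal neighbouring cells, were lower in 17 of 22 cases (median -0.32, and -0.14 under TMM, but 0.049 with Folr1 left out of the choroid plexus limit), and the list's median in IL-4/C1q EV over IL-1a/TNFa/C1q EV was 0.46. Secreted proteins of the ventricle wall (23 measured) had medians of -0.00 and 0.19 in these comparisons, and genes of hypoxia, oxidative stress and metals (23 measured) 0.07 and 0.10. The transport and stem cell lists were also lower in other cells of this library, the transport list by a median of -0.40 in microglia and -0.26 in astrocytes and the stem and astroglial list by -0.39 and -0.25. All measured genes had medians of -0.18 and -0.05 there. Single genes lower in IL-1a/TNFa/C1q EV than in each other library went the same way in microglia. Qk, an RNA-binding protein gene, had 416, 424, 127 and 339 CPM in ependymal cells and 749, 426, 213 and 406 in microglia. Brd1, a chromatin reader, had 59.4, 121, 18.4 and 88.1 CPM in ependymal cells and 55.0, 91.7, 13.8 and 63.5 in microglia. The part of the library as a whole in these differences was not tested.

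The 2 scalings of the data did not give the same split for IL-1a/TNFa/C1q EV over UT EV. By CPM 61 genes were at least 2-fold higher and 67 lower (36 and 35 without the barcodes that carried other types' markers), and with scaling by trimmed mean of M-values (TMM) 94 and 31. The interferon median was 0.86 and the stem and astroglial median -0.32 under TMM, so both kept their direction. By comparison, IL-4/C1q EV over UT EV had a split of 44 higher and 12 lower by CPM and 57 and 7 by TMM. Against IL-1a/TNFa/C1q EV, the IL-4/C1q EV split was 36 and 28 by CPM (12 lower without those barcodes) and 24 and 34 by TMM.

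A count of genes set apart from every other library, by an interval entirely beyond 1.5-fold from the nearest one, placed MAPS far from the rest. Of 4523 genes eligible, 394 were higher and 312 lower in MAPS. In UT EV 2 were higher and 3 lower, and 18 and 9 were so in IL-1a/TNFa/C1q EV. No gene of IL-4/C1q EV passed this rule in either direction. The 3 genes lower in UT EV, Wfdc2, Spp2 and Rbp4, belong to the small group of cells described last.

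In UT EV over MAPS, 19% of 2987 genes with at least 100 UMIs were at least 2-fold higher and 19.3% lower by CPM, 568 and 577 genes. TMM turned this into 1111 higher and 204 lower, with library factors of 1.39 in MAPS and 0.951 in UT EV. Most cilium lists had medians below the -0.47 of all genes in UT EV by CPM. The dynein arm list had 4 genes higher and 18 lower (median -0.89, and -0.34 under TMM), with 9 of 19 at least 2-fold lower. The central pair list had all 19 lower (-0.62, and -0.07 under TMM), and the cilium transcription programme all 16 (-1.43, and -0.88 under TMM). Medians of microtubule inner proteins (-0.30) and of intraflagellar transport (-0.44) turned to 0.25 and 0.11 under TMM.

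Single genes showed the size of the gap. Hydin, of the central pair, stood at 488, 155, 115 and 136 CPM in library order. Trp73, which controls multiciliated cell formation, stood at 106, 15.5, 21.7 and 22.04 CPM. Sox9, a glial factor, had 1273, 260, 185 and 224 CPM, and Pltp, a phospholipid carrier, 2382, 615, 419 and 561. Some genes of secreted and metal-binding proteins went the other way, with Mia at 290, 931, 978 and 887 CPM and Mt3, metallothionein 3, at 4905, 12058, 12022 and 11232. Their lists were mixed in UT EV over MAPS. The secreted protein list, which includes Pltp, had 13 genes higher and 10 lower, and that of hypoxia, oxidative stress and metals 11 higher and 12 lower. Apoe, the lipid carrier, stood at 7471, 16381, 17700 and 18867 CPM. For each of these genes the 3 vesicle libraries lay close together and MAPS apart.

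Immediate early and heat shock genes, which respond within minutes to activity and to tissue handling, were higher in MAPS. Of 25 with at least 100 UMIs, 17 were at least 2-fold lower in UT EV and 2 higher, where 19.3% and 19% of all genes were (median -1.67, and -1.12 under TMM). Fosb stood at 587 CPM in MAPS and 58.7, 61.7 and 79.7 in the vesicle libraries, but 131 of its 178 UMIs in MAPS lay in 4 cells of the Sspo group described last. Fos, another such gene, had 344 of its 819 UMIs of MAPS there. Without these cells and the barcodes with other types' markers the list median was -1.12. Hspa1b, an inducible chaperone, stood at 475, 58.7, 40.0 and 37.3 CPM, and Egr1 at 874, 121, 169 and 149. Among the vesicle libraries Hspb1, a small heat shock protein, was lowest in UT EV, with 247, 541 and 729 CPM. Over UT EV it was 2.19-fold higher (1.71 to 2.83) for IL-1a/TNFa/C1q EV, whereas IL-4/C1q EV was 2.95-fold higher (2.32 to 3.79). These were 1.71 and 1.64 without the barcodes that carried other types' markers. Without them the list medians over UT EV went from 0.46 to 0.14 for IL-1a/TNFa/C1q EV, while those of IL-4/C1q EV went from 0.37 to 0.04.

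The gap to MAPS was not limited to ependymal cells. The median over all measured genes in UT EV over MAPS was -0.73 in choroid plexus cells, -0.77 in astrocytes and -1.10 in microglia. Rn18s-rs5, a ribosomal RNA transcript, had 3269 CPM in ependymal cells of MAPS and 16054 to 29428 in the vesicle libraries, and 2137 against 17626 to 25229 in microglia. The mitochondrial gene mt-Nd3 had 101 UMIs in ependymal cells of MAPS and none in the 3 vesicle libraries, where 0 UMIs allow up to 5.01 to 9.28 CPM. In microglia mt-Nd3 had 334 CPM against 1.22 to 1.99. The effect of vesicles and any other difference between the MAPS library and the others cannot be told apart.

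A few ependymal cells formed a separate group, marked by Sspo, Wfdc2 and Spp2. These 3 genes were chosen after their values were seen, so what follows is a description. Sspo encodes SCO-spondin, the giant secreted protein of the subcommissural organ and of Reissner's fibre, Wfdc2 a secreted protease inhibitor and Spp2 a secreted phosphoprotein. Cells with at least 5 UMIs of the 3 numbered 4 of 45 in MAPS (8.89%, 2.48% to 21.2%) and 9 of 125 in IL-1a/TNFa/C1q EV (7.20%, 3.35% to 13.2%). IL-4/C1q EV held 2 of 142 (1.41%, 0.171% to 4.995%). UT EV had 0 of 86, which allows a share of up to 3.49% taken as 3 cells, or 4.20% as the exact limit. The 15 cells carried 41 to 92 UMIs of the 3 genes and no other ependymal cell more than 2.

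These cells held cilium genes at varied levels and few transcripts of other ependymal genes. Hydin stood at 214 CPM in the 15 cells and 190 in the other 383. Rsph1 and Tmem212 belong to the rule that picked the cells, so their levels depend on that choice. Rsph1, detected in all 15 cells, stood at 1097 CPM in them and 1442 in the rest. Tmem212 stood at 328 and 4783 CPM, and Rarres2 at 101 and 5452. Sntn, the calcium buffer gene Calb1, the sodium pump regulator Fxyd1 and the interferon gene Isg15 had no UMI in them, and 978, 411, 855 and 602 UMIs in the rest. Conversely Rbp4, the retinol carrier, had 142 UMIs in 14 of the 15 cells and none in the rest. Spdef, a transcription factor of secretory epithelium, was found in 14 of 15 cells with 51 UMIs, against 1 UMI in the rest. The stress gene Atf3 stood at 4363 and 119 CPM. Since 177 of its 207 UMIs in MAPS lay in 4 such cells, the Atf3 level of a library (683, 77.3, 364 and 175 CPM) moved with the share of such cells in it. With at least 15 marker UMIs required, the shares in library order were 5.88%, 0%, 1.94% and 0%.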

How the data were processed

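The deposited values are whole UMI counts per gene and cell barcode, 1 matrix for each of the 4 libraries, made with Cell Ranger 8.0.1 per the file headers. GRCm39, Seurat 4.1.0, bcl2fastq 5.0.1 and another Cell Ranger version, 7.0.0, are listed in the submitters' processing notes. Libraries were 10x 3′ from enzymatically dissociated tissue after removal of red and dead cells, per the labels' protocols. Barcodes were filtered as described above, and no annotation of cell types was used. Doublets called by scrublet (scanpy 1.11.5) were kept, and leaving them out was an alternative. Counts of the chosen cells were summed per library and divided by their total. Intervals (scipy 1.17.1) are exact Poisson for levels, Clopper-Pearson for shares and conditional binomial for ratios. TMM factors came from edgeR 4.0.16, and no count model was fitted.

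A list member counted as measured with 20 UMIs over the 4 libraries and entered counts of 2-fold differences with 100, without the 16 genes of the cell rule. Genes were named when they belonged to the rule, were among the 20 with the highest ratio to other cells, differed from every other library (60 or more UMIs in all, interval beyond 1.5-fold), or led a list by UMIs or ratio. The members and lists were chosen with earlier results of these data known. Alternatives chosen after seeing the data were the choroid plexus limit without Folr1, at least 15 marker UMIs, and leaving out barcodes with other types' markers with or without the Sspo cells. The computations were tested on simulated data. Healthy controls were not analysed here.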

Additional observations from a re-analysis of the deposited data

Results flagged for a closer look

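Only the interferon-response list, in 1 comparison, was checked here for a direction that differed between cell kinds of the same libraries. The ependymal value depended on the handling of the cells, as given above. For IL-4/C1q EV over IL-1a/TNFa/C1q EV its median log2 ratio was -0.20 in ependymal cells, with 13 genes higher and 22 lower. It was 0.77 in choroid plexus cells, with 20 higher and 4 lower, 1.24 in astrocytes, with 39 and 3, and 1.998 in microglia, with 47 and 1. Each group is 1 library, so the difference between cell kinds was not tested.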

How the results depend on the processing

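No paired analysis was possible because each group is 1 library, and for the same reason no replicate could be left out. The shares of ependymal cells were 0.513%, 1.003%, 1.39% and 1.41% in library order with the choroid plexus limit without Folr1, and 0.639%, 0.910%, 1.41% and 1.43% after thinning to 1500 UMIs. Without barcodes that carried other types' markers IL-1a/TNFa/C1q EV had 0.648% and IL-4/C1q EV 0.817%. Counts of genes at least 2-fold higher and lower moved most with the UMI minimum. With 20 UMIs they were 624 and 562 for IL-4/C1q EV over UT EV, 708 and 318 for IL-4/C1q EV over IL-1a/TNFa/C1q EV, 565 and 900 for IL-1a/TNFa/C1q EV over UT EV, and 1047 and 2861 for UT EV over MAPS. With 1 UMI they were 1121 and 1334, 1913 and 915, 1017 and 1746, and 1275 and 4465 in the same order.

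For IL-4/C1q EV over UT EV the counts were 29 higher with no choroid plexus or microglia UMI allowed, 81 and 32 without Folr1 in the limit, 24 and 7 without other-type barcodes and Sspo cells, 7 lower with TMM, and 113 and 49 as means over cells. The interferon median was 0.99 with no such UMI allowed and 0.61 as a mean over cells, and the MHC class I median 0.63 with at least 15 marker UMIs. Cd74 turned to -0.15 without Folr1 in the limit. The immediate early list turned to -0.061 with at least 15 marker UMIs and to -0.13 without other-type barcodes and Sspo cells.

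For IL-4/C1q EV over IL-1a/TNFa/C1q EV the counts were 55 higher without scrublet doublets, 20 and 16 with no choroid plexus or microglia UMI allowed, 47 lower without Folr1 in the limit, 16 and 18 with at least 15 marker UMIs, 12 lower without other-type barcodes, 5 lower without these and Sspo cells, and 68 higher as means over cells. The interferon median was -0.48, -0.51 and -0.55 with at least 15 marker UMIs, without other-type barcodes and without these and Sspo cells. MHC class I had -0.17 without other-type barcodes, and MHC class II turned to 0.051 with at least 15 marker UMIs.

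For IL-1a/TNFa/C1q EV over UT EV the counts were 40 and 32 with no choroid plexus or microglia UMI allowed, 36 lower with at least 15 marker UMIs, 36 and 35 without other-type barcodes, 28 and 32 without these and Sspo cells, 94 and 31 with TMM, and 109 and 102 as means over cells. The interferon median was 0.96 without Folr1 in the limit, 0.97 with at least 15 marker UMIs and 0.94 without other-type barcodes and Sspo cells. MHC class I had 1.08 with no choroid plexus or microglia UMI allowed and 1.16 with at least 15 marker UMIs. The polarity list turned to 0.049 without Folr1 in the limit, and the immediate early list to -0.028 without other-type barcodes and Sspo cells. For UT EV over MAPS 157 were lower with no such UMI allowed, 1341 without Folr1 in the limit, and 1111 higher and 204 lower with TMM. There TMM gave 0.73 for interferon, 0.37 for MHC class I, 0.25 for microtubule inner proteins and 0.11 for intraflagellar transport, the last 2 turned. MHC class I had 0.62 with no such UMI allowed and -0.51 as a mean over cells. A lower UMI minimum enters more genes of low counts. For the other settings the cause was not tested. Depth also limits the members: MAPS had 45 cells, and 11 of the 35 measured interferon genes reached 100 UMIs.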
